A study of Mus musculus with 40 samples.

Results

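Transcripts of 10 genes that mark T cells and natural killer (NK) cells were followed in mouse bone: Cd2, Cd3d, Cd3e, Cd3g, Cd4, Cd8a, Lck, Nkg7, Gzma and Prf1. The genes were listed with earlier results of these data known. Their probes were picked by gene symbol alone, and every probe that carries one of these symbols was read in all 8 groups. Of the 10, 9 had a probe and together they had 10 probes, out of 25697 probes for 17916 genes on the array. A gene was tested if its probe was detected, meaning a detection p under 0.01, on at least 5 arrays of a fit. This left Cd2, Cd3d, Cd3e, Cd3g, Lck, Nkg7 and Prf1, that is 7 of the 10, in every fit. Gzma, a granule protease of killer cells, was not analysed here.

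RNA of ovariectomized C57BL/6 female mice, 15 weeks old, was hybridised to 40 Illumina arrays, 1 colour each. The mice were wild type or carried a deletion of activation function 1 (AF-1), the ligand-independent activation region at the amino end of estrogen receptor alpha (ERα). All of them lacked ovaries, so no group stands for an intact animal. At 1 week after surgery they received 17β-estradiol (E2) at 115 µg/kg under the skin, or olive oil as vehicle, and RNA was prepared 18 h later.

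The bone called trabecular was the vertebral bodies L5 and L6, and the bone called cortical was the shaft of long bones after flushing of the marrow. The labels disagree on the shafts, with femora and tibiae in the protocol and the femur alone in the characteristics. Each of the 8 groups (2 bones, 2 genotypes and 2 treatments) held 5 arrays, replicates 1 to 5, and replicate 1 of every group lay on BeadChip 1, replicate 2 on BeadChip 2, and so on. The labels leave unsaid whether each replicate was an animal of its own and whether a mouse gave both bones; the p-values then reflect array-to-array spread, some of which may be technical. Detected probes numbered 8052 to 9218 on the trabecular arrays of BeadChip 1 and 10357 to 11203 on the other trabecular arrays, against 9880 to 11435 and 10324 to 11691 on cortical arrays. The targeted gene Esr1 gave a mean log2 level of 7.73 ± 0.09 in wild-type and 7.66 ± 0.23 in AF-1-deleted trabecular bone with vehicle (SD, n = 5). Where its probe lies relative to the deleted region is not known, so these levels do not check the genotype labels.

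T cells recognise antigen through the T cell receptor, whose signal is carried inward by the CD3 chains (Cd3d, Cd3e, Cd3g). CD4 or CD8 binds the presenting molecule and brings the kinase Lck to the receptor, and CD2 is an adhesion molecule of lymphocytes, T and NK cells among them. Killer T cells and NK cells share a granule machinery that includes perforin (Prf1), granzymes such as Gzma, and the granule membrane protein Nkg7. Bone marrow is a home of memory T cells, and T cells have been studied in the bone loss that follows loss of ovarian estrogen.

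Cd3g, Cd3d and Cd3e are direct neighbours on mouse chromosome 9 and each encodes a CD3 chain. The 250 bases before their annotated starts are shown here because the genes are neighbours, beside the window of the cytotoxic gene Nkg7. Lck also differed between the bones, and its windows are counted below but not shown. Sequences are RefSeq's, build GRCm38.p6, read 5′ to 3′ on each gene's strand, and 8 of the 10 genes matched an entry. Capitals mark matches on either strand to AGGAAG (a core of ETS factors), TGTGGT (a core of RUNX factors), TCAAAG (a core of TCF1) or AGGTCA (the estrogen response half-site).

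Cd3g chr9:44980432-44980681, minus strand: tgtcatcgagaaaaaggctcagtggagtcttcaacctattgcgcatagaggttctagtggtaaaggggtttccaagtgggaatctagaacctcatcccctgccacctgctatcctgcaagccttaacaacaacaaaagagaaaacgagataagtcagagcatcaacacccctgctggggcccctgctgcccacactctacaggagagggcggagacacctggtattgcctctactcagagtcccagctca

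Cd3d chr9:44981536-44981785, plus strand: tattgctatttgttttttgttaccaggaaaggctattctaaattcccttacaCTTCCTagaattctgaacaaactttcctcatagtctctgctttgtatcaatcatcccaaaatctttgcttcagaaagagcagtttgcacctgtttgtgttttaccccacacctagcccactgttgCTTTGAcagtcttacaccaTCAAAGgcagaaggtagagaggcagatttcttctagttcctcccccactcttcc

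Cd3e chr9:45009612-45009861, minus strand: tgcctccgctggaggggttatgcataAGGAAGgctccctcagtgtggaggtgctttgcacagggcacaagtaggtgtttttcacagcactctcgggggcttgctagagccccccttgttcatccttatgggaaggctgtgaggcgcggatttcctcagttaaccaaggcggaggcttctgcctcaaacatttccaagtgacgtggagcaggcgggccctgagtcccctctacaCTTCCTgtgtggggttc

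Nkg7 chr7:43436888-43437137, plus strand: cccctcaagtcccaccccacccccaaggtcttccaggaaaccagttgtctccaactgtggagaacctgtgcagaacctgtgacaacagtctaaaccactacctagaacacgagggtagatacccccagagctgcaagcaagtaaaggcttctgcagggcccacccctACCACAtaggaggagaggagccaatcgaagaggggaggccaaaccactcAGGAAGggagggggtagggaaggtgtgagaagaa

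The Cd3d window held 1 ETS core at 198 bases before the start and 2 TCF1 cores at 73 and 54 bases. The Cd3e window held 2 ETS cores, at 224 and 17 bases, and the Cd3g window held none of the 4 motifs. The Nkg7 window had 1 ETS core at 34 bases and 1 RUNX core at 83 bases before the start. Over the 9 windows of the 8 matched genes, of which Lck had 2, an ETS core was found in 6, a RUNX core in 4, a TCF1 core in 1 and the estrogen half-site in 0. Among 32851 mouse promoter windows of the same length these shares were 29.48%, 14.05%, 13.83% and 14.02%. A match is a description of the letters and not a binding site, and none of the 4 letter strings contains another.

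The 10 genes differed in whether the array could see them. Cd3d, Cd3g, Lck, Nkg7 and one Prf1 probe were detected on 40 of 40 arrays, Cd2 on 37 and Cd3e on 35. The Cd4 probe was detected on 1 of 40 arrays, with an intensity of 119 to 285, and the Cd8a probe on 0 of 40, with 133 to 243. Neither level is known below the background, so the co-receptors that divide helper from killer T cells were not compared. Cd8b1, the partner chain of Cd8a, was detected on all 20 arrays of each bone. The other Prf1 probe was detected on 0 of 40 arrays (140 to 295), while the probe used spanned 491 to 5311. The 2 Prf1 probes thus disagree, and what follows for Prf1 rests on 1 of them.

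The label was set against further marker genes. Of 36 other T cell genes, 32 had a probe, and 18 were measured in the fit of all 40 arrays, among them Cd8b1, Lat, Il7r and Cd27, while 8 were detected on 0 arrays, among them Gata3, Themis and Il2ra. Of 22 other NK and cytotoxic genes, 9 were measured and 10 were detected on 0 arrays. Those 10 include Ncr1, the NK activating receptor NKp46, the transcription factors Eomes and Tbx21, and the granule protease Gzmb. On all 40 arrays, 7 of the listed T cell genes and 3 of the listed NK and cytotoxic genes (Klrd1, Ctsw and Ccl5) were detected. The T cell part of the label rests on the 18 measured genes, and which cells made their transcripts was not tested. Because Ncr1 and Eomes were not detected, Nkg7 and Prf1 are called here by gene name or as the cytotoxic genes.

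The first comparison asked whether the 2 bones differ. The group means of Cd2, Cd3d, Cd3e, Cd3g and Lck were higher in vertebral bone than in the shafts under each of the 4 conditions of genotype and treatment. The share of all genes with this pattern was not computed. Averaged over these conditions, 6 of the 7 measured genes were called higher in trabecular bone (limma, Benjamini-Hochberg adjusted p under 0.05), led by Cd2 and Lck. The background for this count is large: 31% of all 9452 genes tested were called higher in trabecular bone, and 55.7% were called in either direction. The median log2 difference of the 7 genes was 0.59, and that of all genes was 0.07.

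Cd2, the adhesion molecule, gave the largest difference. Its log2 levels in trabecular bone of wild-type mice were 8.05, 8.19, 8.26, 8.23 and 8.18 with vehicle and 7.61, 7.29, 7.85, 8.24 and 7.82 with E2, replicates 1 to 5. In AF-1-deleted trabecular bone they were 8.22, 8.06, 7.48, 7.94 and 8.33 with vehicle and 8.55, 7.85, 7.86, 7.80 and 8.35 with E2. The lowest of these 20 arrays read 7.29, and vehicle-treated wild type was the tightest group (SD 0.08).
In wild-type cortical bone the levels of Cd2 were 6.53, 7.18, 7.67, 7.38 and 6.65 with vehicle and 6.11, 7.02, 7.49, 8.0 and 7.29 with E2. In AF-1-deleted cortical bone they were 7.66, 7.30, 6.65, 6.58 and 7.48 with vehicle and 6.98, 6.73, 7.33, 7.26 and 6.32 with E2. Every one of the 20 trabecular arrays exceeded the cortical median, and 11 of them exceeded all 20 cortical arrays. The averaged log2 difference was 0.93 ± 0.13 (SE; 1.90-fold, adjusted p = 3.27e-07 in limma), and within BeadChips 1 to 5 it was 1.29, 0.79, 0.58, 0.75 and 1.24.

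Lck, the kinase that starts receptor signalling, followed closely. In trabecular bone its log2 levels were 9.02, 9.20, 9.02, 9.68 and 8.99 in wild type with vehicle and 9.93, 8.97, 9.27, 9.06 and 9.17 with E2. The AF-1-deleted trabecular arrays read 9.82, 9.13, 8.81, 9.23 and 8.80 with vehicle and 9.39, 9.23, 8.93, 9.31 and 9.20 with E2. The trabecular group means ran from 9.16 to 9.28, a narrower span than any of their SDs (0.18 to 0.42).
In cortical bone Lck stood at 8.24, 8.88, 8.60, 8.53 and 7.75 in wild type with vehicle and at 8.26, 8.51, 8.23, 9.24 and 8.15 with E2. The AF-1-deleted cortical arrays read 8.65, 8.90, 8.36, 8.39 and 8.35 with vehicle and 7.85, 8.36, 8.71, 8.48 and 7.37 with E2. Of the 20 cortical arrays, 17 were below every trabecular array. The difference was 0.82 ± 0.12 (1.76-fold, adjusted p = 4.54e-07 in limma), with 1.29, 0.47, 0.53, 0.66 and 1.13 within BeadChips 1 to 5.

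Among the CD3 chains, Cd3d had the largest difference. Its log2 levels in wild-type trabecular bone were 9.47, 8.74, 8.45, 9.48 and 8.91 with vehicle and 8.82, 8.99, 8.76, 8.66 and 8.89 with E2. In AF-1-deleted trabecular bone they were 9.44, 8.83, 8.62, 8.81 and 9.25 with vehicle and 9.45, 9.03, 9.04, 8.66 and 9.16 with E2. None of these arrays fell below 8.45.
The wild-type cortical arrays gave 8.29, 8.25, 8.14, 8.30 and 7.81 with vehicle and 8.06, 8.21, 8.42, 8.76 and 8.62 with E2. The AF-1-deleted cortical arrays gave 8.66, 8.40, 8.38, 7.16 and 8.48 with vehicle and 7.59, 8.39, 8.91, 8.15 and 7.86 with E2. Replicate 4 of the AF-1-deleted vehicle group was the lowest of all 40 arrays. The bones differed by 0.73 ± 0.12 (1.66-fold, adjusted p = 3.05e-06 in limma), and the difference was 1.15, 0.58, 0.25, 0.81 and 0.86 within BeadChips 1 to 5.

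Cd3e, whose chain pairs with both other CD3 chains, was near the detection limit. It was undetected on replicate 1 of both wild-type trabecular groups, on replicate 1 of cortical wild-type vehicle and of cortical AF-1-deleted E2, and on replicate 4 of cortical AF-1-deleted vehicle. Over the 20 trabecular arrays its log2 level ran from 7.02 through a median of 7.58 to 8.16, and over the 20 cortical arrays from 5.84 through 7.02 to 7.92. The ranges overlapped, with 19 of 20 trabecular arrays above the cortical median. The difference was 0.59 ± 0.14 (1.51-fold, adjusted p = 0.000343 in limma), and it was positive on 5 of 5 BeadChips.
Cd3g ran from 7.61 through a median of 8.44 to 9.01 in trabecular bone and from 6.86 through 7.82 to 8.64 in cortical bone. The overlap was wider, and 3 trabecular arrays exceeded all cortical arrays. Its difference was 0.53 ± 0.13 (1.45-fold, adjusted p = 0.00071 in limma), again positive on 5 of 5 BeadChips.

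The 2 cytotoxic genes did not move like this. Nkg7 was called higher in trabecular bone by a small margin, 0.32 ± 0.13 (1.25-fold, adjusted p = 0.0402 in limma), positive on 5 of 5 BeadChips. That call did not hold in 24 of the 56 alternatives run, among them omission of replicate 2 (adjusted p = 0.112), 3 (0.0662) or 5 (0.178), and of any 1 of 18 single arrays. Prf1 stood lower in trabecular than in cortical bone on 4 of 5 BeadChips, with a difference of −0.23 ± 0.14 that was not called (adjusted p = 0.16 in limma). Its trabecular arrays ran from 9.97 through 11.27 to 12.25 and its cortical arrays from 10.73 through 11.41 to 12.39, so the bones overlapped throughout.

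**Figure D1:**
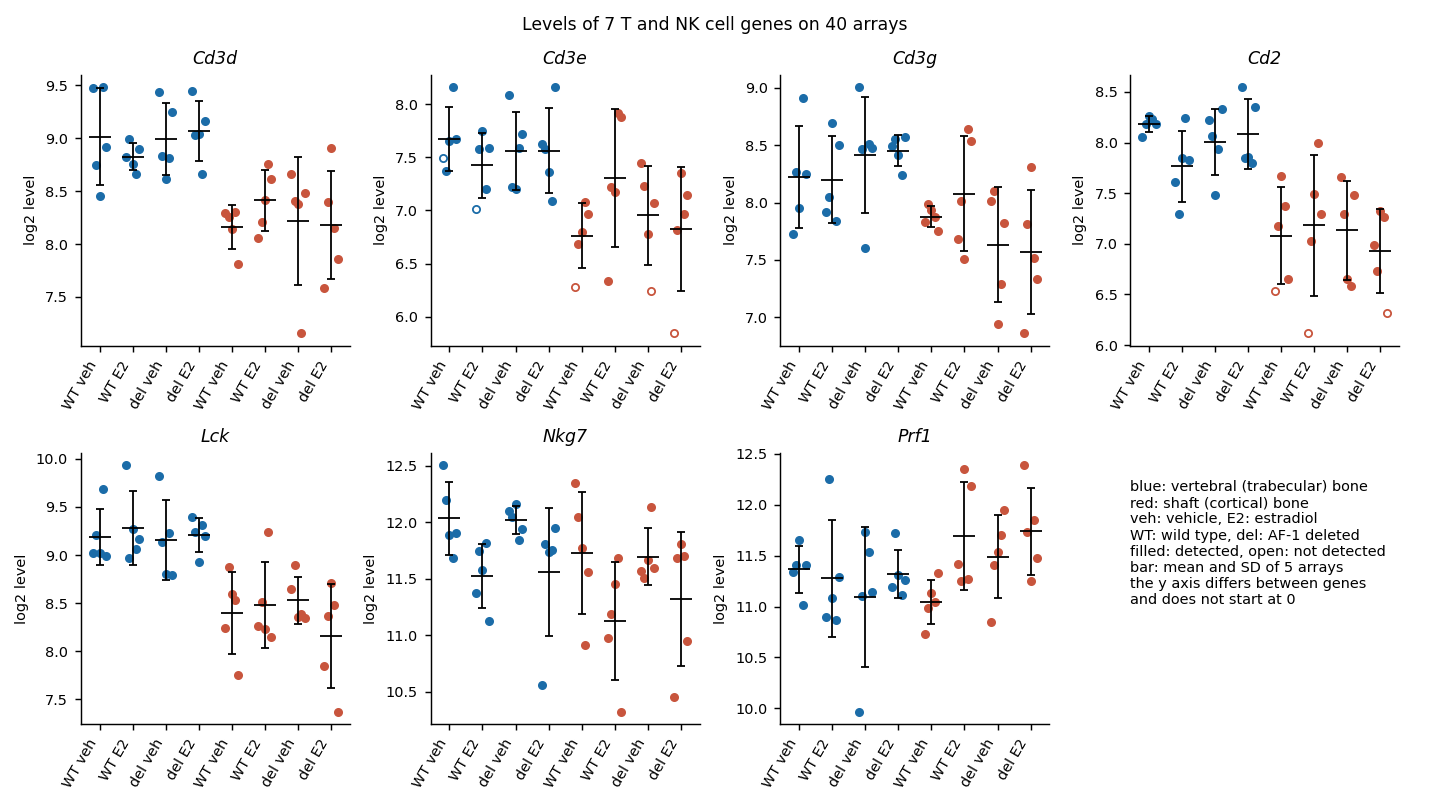
Normalized log2 level of each measured gene (vertical axis, a range of its own for each gene) on the 40 arrays in 8 groups (horizontal axis), with trabecular bone in blue and cortical bone in red; points are arrays, open where the probe was not detected, and bars are the mean and SD of 5 arrays. The 4 trabecular group means of Cd2, Cd3d, Cd3e, Cd3g and Lck lie above the 4 cortical ones, and Nkg7 has its 4 highest group means in the vehicle groups.

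Taken 1 condition at a time, the call rested on fewer arrays and fewer genes passed. In vehicle-treated wild type 4 of the 7 were called higher in trabecular bone, against 9.01% of all genes. They were Cd2 (1.10 ± 0.27), Cd3e (0.91 ± 0.27), Cd3d (0.85 ± 0.24) and Lck (0.78 ± 0.24, adjusted p = 0.0168 in limma), and in each the 5 trabecular arrays lay above the 5 cortical arrays without overlap. The share of all genes without such overlap was not computed, so the lack of overlap is not set against a background. Without replicate 4 or replicate 5 the count was 2. In E2-treated wild type only Lck was called of the 7 (0.80 ± 0.24, adjusted p = 0.0164), against 7.99% of all genes. The call of Lck did not hold without replicate 1 (0.58, adjusted p = 0.1), replicate 3 (0.74, 0.0958) or the trabecular array of replicate 1 (0.64, 0.0673).
In AF-1-deleted mice with vehicle, Cd2 (0.87 ± 0.27), Cd3d (0.77 ± 0.24) and Cd3g (0.78 ± 0.26) were called, 3 of 7 against 9.5% of all genes. With the BeadChip as a block Lck joined them (0.63, adjusted p = 0.0306). Cd3g was not called in 11 of 27 alternatives, Cd3d in 8 of 27 and Cd2 in 6 of 26. None of the 3 stayed called without replicate 2, replicate 4 or the cortical array of replicate 4. In AF-1-deleted mice with E2, 5 of 7 were called against 11% of all genes: Cd2 (1.16 ± 0.27), Lck (1.06 ± 0.24), Cd3d (0.89 ± 0.24), Cd3g (0.89 ± 0.26) and Cd3e (0.74 ± 0.27). The call of Cd3e did not hold in 18 of 26 alternatives (adjusted p up to 0.398 in limma). Without replicate 1 or replicate 5 the count was 2. Scaling the arrays by their medians in place of quantile normalization gave 0 called members in each of these 4 single-condition comparisons. Shares of all genes called in these alternatives are not given here. A test of any difference among the 8 groups called 5 of 7, Cd2, Lck, Cd3d, Cd3e and Cd3g, against 35.5% of all genes, and in that test Cd3g was not called in 10 of 56 alternatives and Cd3e in 5 of 55.

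**Figure D2:**
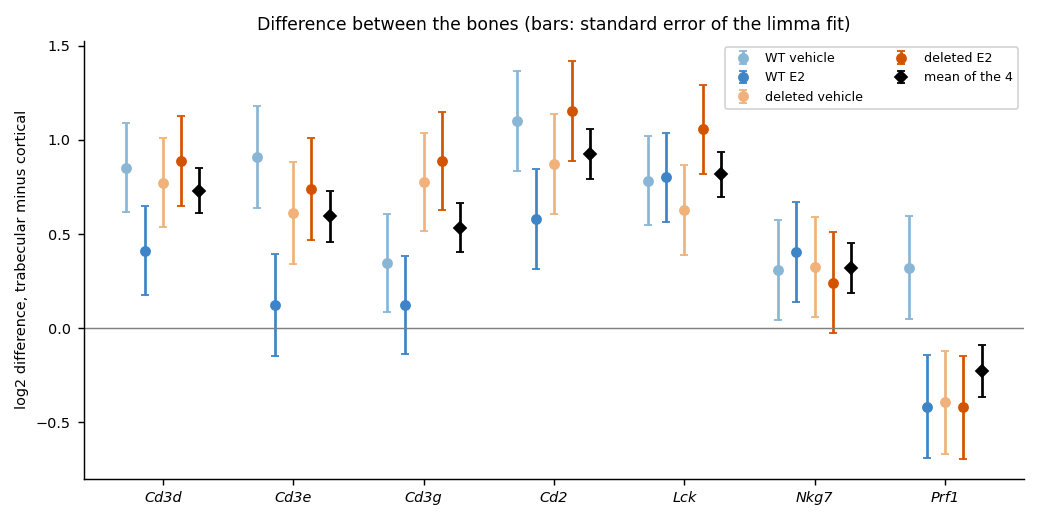
Log2 difference, trabecular minus cortical bone (vertical axis), for each of the 7 measured genes (horizontal axis) in the 4 conditions (circles) and averaged over them (black diamonds); bars are standard errors of the limma fit. The averaged difference runs from 0.93 for Cd2 down to 0.32 for Nkg7, and that of Prf1 is −0.23.

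The order of the 8 groups shows the same split. For each of Cd2, Cd3d, Cd3e, Cd3g and Lck, the 4 trabecular group means ranked above all 4 cortical ones. How many of all genes rank this way was not computed. At the step between the bones, the gap was larger than the SD of both neighbouring groups for Cd3d (0.41) and Lck (0.63), and within the SD of one of them for Cd2, Cd3e and Cd3g. Within a bone, neighbouring groups differed by no more than the SD of one of them. For Nkg7 the order followed treatment: the 4 vehicle groups (12.04, 12.02, 11.73 and 11.70) ranked above the 4 E2 groups (11.56, 11.53, 11.32 and 11.12). The gap at the step between treatments was 0.13, smaller than the SDs of both neighbouring groups (0.25 and 0.57). For Prf1 the 3 highest means were cortical, AF-1-deleted with E2 (11.74), wild type with E2 (11.69) and AF-1-deleted with vehicle (11.49), and the lowest was cortical wild type with vehicle (11.04).

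Other genes of the T cell pathway were read from a list chosen by function. Averaged over the 4 conditions, 11 of 18 measured T cell genes were called higher in trabecular bone and 2 lower, with a median of 0.53, where 31% of all genes were called higher and 24.7% lower. Ptprcap, which binds the phosphatase CD45, was higher by 0.97 ± 0.15, and the signalling regulator Ubash3a by 0.84 ± 0.16. The interleukin-7 receptor Il7r was higher by 0.84 ± 0.15, the CD8 chain Cd8b1 by 0.73 ± 0.18, and Zap70, the kinase that binds phosphorylated CD3 and zeta chains, by 0.59 ± 0.15. The adaptor Sit1 (0.58 ± 0.14), the activation antigen Cd69 (0.55 ± 0.11) and the costimulatory receptor Cd27 (0.52 ± 0.10) were also called higher. The zeta chain gene Cd247 was called lower (−0.95 ± 0.23), but its probe was detected on 5 of 20 trabecular and 14 of 20 cortical arrays, so the size of that difference is not measured. The same holds for Sit1, detected on 8 trabecular arrays and 1 cortical array, and for Ubash3a, detected on 15 and 3. The other gene called lower was Thy1 (−0.30 ± 0.12), which was named after its value was seen and is also made outside T cells. Which cells gave the transcripts called higher, among them Ptprcap, Il7r, Cd69 and Cd27, was not tested.
Of 9 measured NK and cytotoxic genes, 7 were called higher in trabecular bone and 0 lower, with a median of 0.66, against the same 31% and 24.7% of all genes. They include the receptor chains Klrd1 (0.66 ± 0.12), Klre1 (0.76 ± 0.17) and Il18rap (0.77 ± 0.16), the T cell adaptor Sh2d2a (0.79 ± 0.15), the chemokines Ccl5 (0.66 ± 0.17) and Xcl1 (0.51 ± 0.18), and the receptor Cd160 (0.40 ± 0.13). Gzmm, a granzyme, had −0.13 ± 0.14 and Ctsw, a protease of killer cells, 0.18 ± 0.13, neither of them called. The Xcl1 probe passed detection on 9 arrays of trabecular and 3 of cortical bone and the Cd160 probe on 3 and 2, so the sizes of these 2 differences rest mostly on values at background.

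Markers of other cells were read in the same contrast, against the 31% of all genes called higher and the 24.7% called lower. All 12 measured pan-leukocyte genes were called higher in trabecular bone, with a median of 0.56 that is close to the 0.59 of the 7 genes. Their summed level was 82602 to 123027 on trabecular arrays and 49556 to 94744 on cortical arrays. Of the B lineage genes 7 of 9 were called higher (median 0.65; summed level 6911 to 21015 against 5063 to 14216), and of the erythroid genes 8 of 10 (0.55; 89448 to 129253 against 78663 to 111326). Neutrophil genes were called higher in 5 of 12 (0.19; 210059 to 253521 against 168773 to 244385), so granulocyte transcripts were abundant in the flushed shafts too. Monocyte and macrophage genes were called higher in 3 of 12 (0.23; 53924 to 86254 against 54847 to 80125), a share no larger than that of all genes, and dendritic cell genes in 2 of 3 (0.44; 1387 to 3367 against 885 to 2135).
In the opposite direction, 13 of 13 skeletal muscle genes were called lower in trabecular bone (median −2.36), with summed levels of 27428 to 100219 against 89354 to 323013. So were 5 of 5 osteocyte genes (−1.89; 1256 to 2387 against 5041 to 13625) and 5 of 7 osteoblast genes (−0.51; 64328 to 90445 against 87747 to 110266). Of the lymph node stroma genes 2 were measured and 1 was called lower, Ccl21a (−2.01 ± 0.31, detected on 8 trabecular and 19 cortical arrays), while Glycam1, Madcam1 and Chst4 were detected on 0 arrays. The part of these cell types in the difference of the T cell genes was not tested. In bulk RNA, fewer T cells and less transcript per T cell cannot be told apart.

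**Figure D3:**
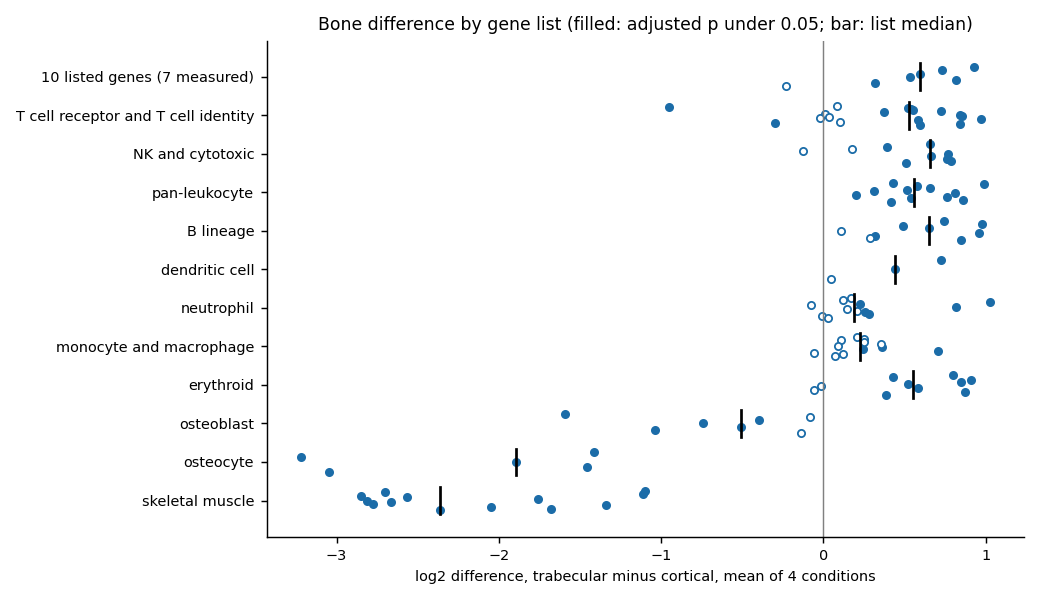
Log2 difference, trabecular minus cortical bone, averaged over 4 conditions (horizontal axis), for the measured genes of each list (rows); each point is a gene, filled where adjusted p was under 0.05, and the vertical bar is the list median. The 7 measured T and NK cell genes, the other T cell genes and the pan-leukocyte genes have medians of 0.59, 0.53 and 0.56, and skeletal muscle has −2.36.

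The second comparison asked what E2 does to these genes within a bone. No member was called in any of the 4 settings of bone and genotype, and the genes called among all genes were few as well. In wild-type trabecular bone 0 of 7 were called in limma against 0.207% of all genes. At an unadjusted p under 0.05 there were 2 (Nkg7 and Cd2), against 6.77% of all genes. In AF-1-deleted trabecular bone the count was 0 against 0.0115%, with 0 against 4.16% at that unadjusted p. For the mean of both genotypes it was 0 against 0.196%, with 1 (Nkg7) against 7.58%. In wild-type cortical bone it was 0 against 0.143%, with 1 (Prf1) against 3.13%, and in AF-1-deleted cortical bone 0 against 0%, with 0 against 3.50%. For their mean it was 0 against 0.0989%, with 2 (Nkg7 and Prf1) against 4.27%. No gene of the wider T cell and NK lists was called in these comparisons either, with 15 to 17 measured T cell genes and 7 to 8 measured NK genes.

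Nkg7 was the gene with the most uniform E2 difference, and it was below vehicle in 4 of 4 settings. Its log2 levels in wild-type trabecular bone were 12.51, 12.20, 11.89, 11.68 and 11.91 with vehicle and 11.37, 11.75, 11.58, 11.82 and 11.12 with E2. In AF-1-deleted trabecular bone they were 12.10, 12.05, 12.16, 11.85 and 11.94 with vehicle and 10.56, 11.81, 11.74, 11.76 and 11.95 with E2. The groups overlapped in both genotypes, and replicate 1 held the lowest AF-1-deleted E2 value.
In wild-type cortical bone Nkg7 read 12.35, 12.04, 11.77, 10.91 and 11.56 with vehicle and 10.97, 11.19, 11.45, 11.68 and 10.32 with E2. In AF-1-deleted cortical bone it read 11.57, 11.51, 11.67, 12.13 and 11.60 with vehicle and 10.45, 11.69, 11.81, 11.70 and 10.95 with E2. Here too the groups overlapped, and in wild type replicate 4 went against the other 4.
The differences were −0.51 ± 0.22 and −0.46 ± 0.22 in trabecular bone of wild-type and AF-1-deleted mice and −0.60 ± 0.29 and −0.38 ± 0.29 in cortical bone (SE; adjusted p from 0.707 to 1 in limma).

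The mean E2 effect over both bones and both genotypes was added after these values had been seen. It gave Nkg7 −0.49 ± 0.13 (0.714-fold, unadjusted p = 0.000821, adjusted p = 0.121 in limma), which was not called. Of the members 0 of 7 were called against 0.466% of all genes, with 1, Nkg7, at an unadjusted p under 0.05 against 9.45%. For Nkg7 the values by BeadChip follow. The difference was −1.29, −0.34, −0.23, 0.10 and −0.66 within BeadChips 1 to 5. It was −0.29 (adjusted p = 0.567) without replicate 1, whose trabecular arrays had the fewest detected probes. With the BeadChip as a block the adjusted p was 0.0845. It passed the threshold without replicate 4 (−0.63, adjusted p = 0.0319) and without the cortical wild-type vehicle array of replicate 4 (−0.54, 0.0372), and in none of the other 54 alternatives, over which it was negative throughout.

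Prf1, perforin, had its largest E2 difference in wild-type cortical bone. Its log2 levels there were 10.73, 10.99, 11.13, 11.04 and 11.33 with vehicle and 11.41, 11.25, 12.35, 11.27 and 12.18 with E2. E2 arrays 3 and 5 stood highest, and E2 arrays 2 and 4 lay below vehicle array 5. The difference was 0.65 ± 0.25, positive on 5 of 5 BeadChips, with an unadjusted p of 0.0173 and an adjusted p of 1 in limma.
In AF-1-deleted cortical bone Prf1 read 10.85, 11.41, 11.54, 11.70 and 11.95 with vehicle and 12.39, 11.73, 11.25, 11.85 and 11.48 with E2, a difference of 0.25 ± 0.25. In trabecular bone it read 11.34, 11.41, 11.65, 11.01 and 11.41 with vehicle and 10.89, 12.25, 11.08, 10.87 and 11.29 with E2 in wild type (−0.09 ± 0.28). The AF-1-deleted trabecular arrays read 9.97, 11.11, 11.73, 11.53 and 11.14 with vehicle and 11.20, 11.72, 11.31, 11.11 and 11.26 with E2 (0.22 ± 0.28). Vehicle replicate 1 was far below the rest there, at an intensity of 491.

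The E2 differences of the CD3 genes, Cd2 and Lck mostly shared a sign within a setting, and that sign changed between settings, with none of them called. In wild-type trabecular bone 4 of the 5 were negative (−0.42 for Cd2 to 0.09 for Lck), and in AF-1-deleted trabecular bone 5 of 5 were positive (0.0014 for Cd3e to 0.08). In wild-type cortical bone 5 of 5 were positive (0.08 to 0.54, the highest for Cd3e), and in AF-1-deleted cortical bone 5 of 5 were negative (−0.37 for Lck to −0.04). The genes were read on the same arrays, so their signs are not independent of each other. Cd2 in wild-type trabecular bone had −0.42 ± 0.19, negative on 4 of 5 BeadChips (adjusted p = 0.731 in limma). Cd3e in wild-type cortical bone read 6.28, 6.69, 6.80, 7.08 and 6.97 with vehicle and 6.34, 7.22, 7.18, 7.92 and 7.88 with E2. Replicate 1 was low in both groups, the other 4 E2 arrays lay above all vehicle arrays, and the difference of 0.54 ± 0.31 was not called (adjusted p = 1).
The width of the intervals limits these comparisons. The 95% confidence interval of a single E2 effect reached 0.40 to 0.59 to either side in trabecular bone and 0.52 to 0.65 in cortical bone. These intervals are not adjusted for the number of genes, while the calls are. Changes of that size, and larger ones, could therefore have been missed.

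**Figure D4:**
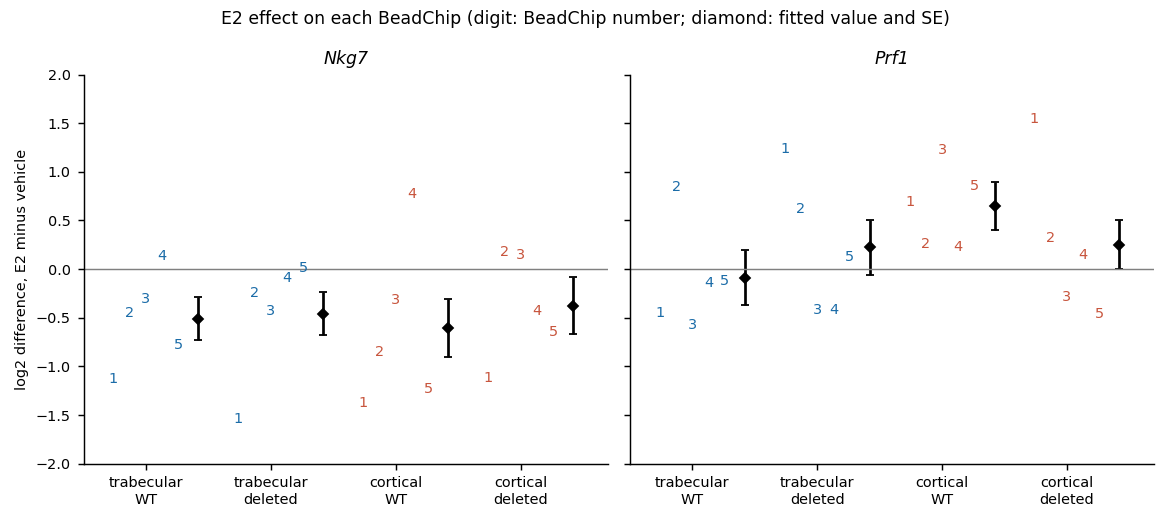
Log2 difference, E2 minus vehicle (vertical axis), of Nkg7 and Prf1 in each bone and genotype (horizontal axis); each digit is the difference within the BeadChip of that number, and diamonds with bars are the limma estimate and its standard error. BeadChip 1 gave the lowest Nkg7 value in all 4 settings, and Prf1 was positive on all 5 BeadChips in wild-type cortical bone.

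The third question was whether these genes depend on AF-1, in their level or in their response to E2. No member was called for the AF-1 dependence of the E2 effect, that is wild-type minus AF-1-deleted response. The count was 0 of 7 in trabecular bone against 0.0115% of all genes, and 0 of 7 in cortical bone against 0%. At an unadjusted p under 0.05 it was 0 of 7 in each. Of all genes, 322 of 8694 in trabecular bone and 212 of 9096 in cortical bone had such a p. With shares this low, 0 of 7 does not set the members apart from all genes. The 14 values ran from −0.49 (Cd2, trabecular bone) to 0.67 (Cd3e, cortical bone). For AF-1-deleted minus wild-type level, 0 of 7 were called in limma in every setting. The shares of all genes were 0% with vehicle, 0.0345% with E2 and 0.023% for the mean of both in trabecular bone, and 0%, 0.022% and 0.022% in cortical bone. At an unadjusted p under 0.05 the count of members was 0 in each of these 6 as well, against 2.07% to 4.50% of all genes. The 28 single-treatment differences ran from −0.51 (Cd3g, cortical bone with E2) to 0.44 (Prf1, cortical bone with vehicle).
The E2 effect did not differ between the bones for any member at the threshold: 0 of 7 in wild type against 0.0106% of all genes and 0 of 7 in AF-1-deleted mice against 0%. In wild type 1 member had an unadjusted p under 0.05, against 2.71% of all genes. It was Cd3e, with −0.79 ± 0.38 (trabecular minus cortical effect, adjusted p = 1 in limma). In AF-1-deleted mice 0 members did, against 2.14%.

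The members were also compared with each other over the 40 arrays, after the mean of each bone was removed so that the bone difference does not enter. The 5 T cell genes varied together: all 10 of their pairs were positive, with Pearson's r from 0.29 to 0.71 and Spearman's rho from 0.27 to 0.69. Of 21 member pairs computed, 9 of these 10 had a permutation p under the threshold after adjustment over the 21, by either measure. How often pairs of other genes do so was not computed. The exception was Cd3e with Lck (r = 0.29, rho = 0.27, permutation p = 0.0889, adjusted p = 0.155), which fell to r = 0.08 without the 2 arrays farthest from the median of Cd3e. The highest was Cd3e with Cd3g (r = 0.71, rho = 0.69, adjusted p = 0.00021; r = 0.61 without the 2 farthest arrays). Within BeadChips the 10 pairs had r from 0.46 to 0.80, and within groups from 0.29 to 0.73.
With the 5 T cell genes Nkg7 had r from −0.10 to 0.16, and no pair passed the threshold (adjusted permutation p from 0.465 to 0.993). Prf1 had negative r with all 5, from −0.48 to −0.11, and passed the adjusted threshold with Lck (r = −0.48, rho = −0.56, adjusted p = 0.00621) and Cd3g (r = −0.40, rho = −0.39, adjusted p = 0.022). The r of Prf1 with Lck was −0.40 within BeadChips and −0.53 within groups. Nkg7 and Prf1, both parts of the granule machinery, had r = −0.26 and rho = −0.13 (adjusted p = 0.167). Arrays share BeadChip and signal strength, so these are properties of samples and not of cells. Marker levels also varied within a bone: on cortical arrays the pan-leukocyte genes summed to 49556 to 94744 and the muscle genes to 89354 to 323013. The permutation shuffled arrays within a bone and does not account for that variation.

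**Figure D5:**
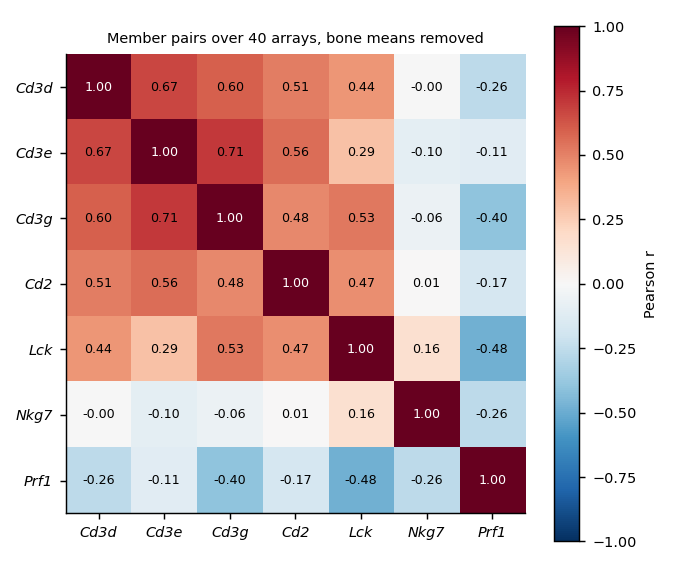
Pearson's r between each pair of the 7 measured genes (both axes) over 40 arrays after the mean of each bone was removed, with red for positive and blue for negative r. The block of Cd3d, Cd3e, Cd3g, Cd2 and Lck has r from 0.29 to 0.71, and the row of Prf1 has r from −0.48 to −0.11 with them.

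The genes whose pattern over the same 40 arrays was most like the mean of the 5 T cell genes were Cd6 (r = 0.70), a T cell surface receptor, Cd8b1 (0.70), the complement genes C1qa (0.69) and C1qc (0.69), known from macrophages, and Gimap7 (0.67), a lymphocyte GTPase. Within trabecular bone their r ran from 0.47 to 0.74 and within cortical bone from 0.68 to 0.84. For the mean of Nkg7 and Prf1 they were Scnm1 (0.70), Sh3tc1 (0.67), Ogfr (0.66), Cnksr3 (0.66) and Mapkapk3 (0.64), and none of the listed NK genes was among them. Nkg7 and Prf1 had r = −0.26 with each other, so their mean is not a pattern that both share. The genes named for each mean had the highest r of all genes measured, without clone and locus names, and carry no test.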

How the data were processed

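Per the file headers, the deposited table holds for each probe the mean bead intensity of an array and a detection p-value, which on this platform is set against negative control beads. The submitters' processing notes name GenomeStudio, with no version. The authors' other table has intensity values that look quantile-normalized, and it served as an alternative (lowest rank correlation with the matched array 1). Of the 25697 probes, 20733 carried a current symbol, 3 a symbol in another letter case, 3872 a synonym that was brought up to date with RefSeq, and 1089 matched none and stayed under their deposited name.

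The neqc function of limma corrected the intensities for background by way of the detection p-values, added an offset of 16, equalised the quantiles of the arrays and took log2 (limma 3.58.1, R 4.3.3, statmod 1.5.0). A probe was kept where at least 5 of the fitted arrays gave a detection p under 0.01, and the brightest kept probe stood for a gene. Group means were fitted over the 20 arrays of a bone (8694 trabecular and 9096 cortical genes) or over all 40 (9452 genes), by lmFit and eBayes, with the Benjamini-Hochberg adjustment across every gene in the fit. The script was tested on simulated data. A level is the log2 value of 1 probe, so levels of different genes are not compared. The precision is limited by the number of arrays. Errors of differences are standard errors, and errors of means are SDs over 5 arrays.

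Replicate numbers come from the titles and match the BeadChip of the array columns, so same-numbered arrays share a slide. Residuals of same-numbered arrays had mean correlations across genes from 0.0371 to 0.304 in trabecular and from −0.0437 to 0.360 in cortical bone. The fit had no term for it, and the block was an alternative. No 2 arrays held identical values (0 pairs). Pair correlations were tested by permutation of values within each bone (100000 draws, two-sided, adjusted over 21 pairs). Further alternatives were no background correction, median scaling, the authors' table, 2 other probe filters, the mean of probes, robust empirical Bayes, array weights, a stricter threshold, other samples in the fit, and leaving out replicates.

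The named genes were all 10 members in every comparison, at most 10 called genes of the T cell and NK lists with the smallest adjusted p in the averaged bone comparison, the 5 genes most like each mean profile, and Esr1, and 1 gene that the rule names is not reported here. The members and the gene lists were chosen with earlier results of these data known.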

Additional observations from a re-analysis of the deposited data

Results flagged for a closer look

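In 56 groups of 5 arrays, the 7 measured genes gave 3 in which 1 array lay far from the other 4, where chance alone gives about 1 in 20 groups. The count is close to that chance share. Cd3d in cortical bone of AF-1-deleted mice with vehicle read 7.16 on replicate 4, the lowest of its group. Nkg7 in trabecular bone of AF-1-deleted mice with E2 read 10.56 on replicate 1, the lowest of its group. Nkg7 in cortical bone of AF-1-deleted mice with vehicle read 12.13 on replicate 4, the highest of its group. The cortical AF-1-deleted vehicle array of replicate 4 was thus flagged for both genes, low for Cd3d and high for Nkg7, and whether this is more than chance was not tested.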

How the results depend on the processing

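The averaged bone comparison called 4 to 6 of the 7 members over 56 alternatives, and 5 to 6 when 1 array or replicate number was left out. Cd2, Cd3d, Cd3e and Lck stayed called in every alternative in which they were tested. Cd3g was lost with median scaling alone (adjusted p = 0.0916), and Nkg7 was lost in 24 of 56 alternatives (adjusted p from 0.00857 to 0.419 over all). The 16 counts of called members for E2, AF-1 and their interactions stayed at 0 in each of the 28 or 37 alternatives run.

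The single-condition bone counts depended on the processing. With median scaling they were 0 in wild-type vehicle (4 in the report), wild-type E2 (1), AF-1-deleted vehicle (3) and AF-1-deleted E2 (5), and the count for any of the 8 groups was 1 (5). Median scaling moved the median of all genes in the averaged bone comparison from 0.07 to −0.02 and the genes called from 5262 to 2834. At an adjusted p under 0.01 the counts were 2, 0, 0, 3 and 3 in the same order. Probes detected on all arrays gave 2 in wild-type vehicle and 3 in AF-1-deleted E2, and array weights gave 2 in wild-type E2. Leaving out 1 replicate gave 2 to 4, 0 to 2, 0 to 4, 2 to 5 and 3 to 6 in the same order. For the single-condition counts and the test of any difference, the share of all genes called in each alternative is not given here. The changes in these counts are therefore not set against a background, and their causes were not tested.

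With the BeadChip as a block, which pairs the arrays, the counts were 4, 1, 4, 5 and 6, and 6 in the averaged comparison. The block added Lck in AF-1-deleted vehicle and 1 gene, Nkg7, in the test of any difference, and changed no other member's call. With the block and without BeadChip 1 the count in AF-1-deleted E2 was 2. Signal close to background limits Cd3e, Cd2, Cd4 and Cd8a.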

Other observations

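Cd4 read a median log2 level of 5.63 in trabecular and 5.40 in cortical bone and Cd8a 4.98 and 4.92, at background, while their relatives Cd8b1 and the CD3 genes were detected. Of the listed regulatory T cell genes, Foxp3 was detected on 1 trabecular and 1 cortical array and Ctla4 on 4 and 2. The early memory and naive T cell genes Ccr7 and Lef1 were detected on 3 trabecular arrays each and on 0 and 1 cortical arrays.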
